A study of Homo sapiens with 3 samples.

Results

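The genes of oxidative phosphorylation were examined in LNCaP cells exposed to n-butylidenephthalide (BP), a small molecule from the root of Angelica sinensis. LNCaP is an established human prostate cancer line that responds to androgen, and here it was grown in RPMI1640 with fetal bovine serum. The labels name no transfection and no genetic change. RNA was taken from control cells, from cells given 70 µg/ml BP for 3 h and from cells given 70 µg/ml BP for 24 h. The control's label gives no treatment and no time of harvest, and the series title speaks of DMSO or BP, so the sources used here do not settle whether the control cells received DMSO. Each condition was measured on 1 Affymetrix Human Gene ST array, so a difference between conditions has no replicate spread, no SD and no test. The members are the genes whose single symbol begins with NDUF, UQCR or ATP5, begins with COX followed by a digit, or is SDHA, SDHB, SDHC, SDHD or CYC1. The rule found 94 of 19208 genes with a single symbol, on 104 transcript clusters (a cluster is the set of probes that the array summarises into 1 value for a transcript). They were 35 genes of complex I, 4 of complex II, 8 of complex III, 18 of complex IV, 15 of complex V and 14 for assembly factors and other genes that share the prefixes. A further 6 genes that the rule would name (ATP5J2, COX19, COX3, COX6B2, NDUFA11 and NDUFB8) lay only in clusters with several symbols and were not analysed here.

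Oxidative phosphorylation is the last stage of cellular respiration and takes place in the inner mitochondrial membrane. Complex I takes electrons from NADH and complex II takes them from succinate, and both hand them to ubiquinone. Complex III passes them on to cytochrome c, and complex IV gives them to oxygen. Protons pumped along this path flow back through complex V, the ATP synthase, which makes ATP. The subunits come from nuclear and mitochondrial genes, which have to be built together into large assemblies. Normal prostate epithelium is known for limited oxidation of citrate, and prostate cancer cells for a return to it.

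The arrays were alike as a whole, with medians over 33297 clusters between 5.46 and 5.48 on the log2 scale, while the 75th percentile was 0.08 higher at 3 h and 0.03 higher at 24 h than in control cells. Of 8 markers of LNCaP cells listed, 7 were measured, with control values of 8.31 to 10.41, and at 24 h 6 of the 7 were lower by 2-fold or more than in control cells. PTPRC, the marker of white blood cells, had a value of 2.17 on all 3 arrays, the lowest of 8 markers of other cells. COL1A1 (6.86 in control cells, 6.86 after 3 h and 7.04 after 24 h) and VIM (6.00, 5.94 and 6.30) lay above the array medians. None of the 8 differed 2-fold at either time. RNA came from whole dishes, so less RNA of a gene per cell and fewer cells that carry it cannot be told apart.

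Members of oxidative phosphorylation stayed within 2-fold of control cells at both times. At 3 h, 0 of 94 members were 2-fold or more above control cells and 0 were 2-fold or more below them, where the background over all genes was 0.344% and 0.0469%. At 24 h the counts were again 0 and 0, where the background was 1.53% higher and 2.11% lower. Between 24 h and 3 h they were also 0 and 0, where the background was 0.807% higher and 2.40% lower. With so few genes past 2-fold in the whole table at 3 h, a count of 0 among 94 says little about the members at that time.

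Smaller thresholds were then applied, and the 1.25-fold one was chosen after the values were seen. At 3 h, 0 members were 1.5-fold higher and 0 were 1.5-fold lower than in control cells, beside 1.55% and 0.401% of all genes. At 24 h, 0 members were 1.5-fold higher, beside 4.49% of all genes, and 2 (2.13%) were 1.5-fold lower, beside 4.04%. These were ATP5G1, a gene for the membrane ring of ATP synthase, and COX18, an assembly factor of complex IV. At the 1.25-fold threshold, 5 members (5.32%) were higher and 0 were lower at 3 h than in control cells, beside 5.67% and 3.11% of all genes. At 24 h, 3 members (3.19%) were higher and 7 (7.45%) were lower, beside 9.18% and 7.58%. The share of members lower at 24 h was thus close to that of all genes, and the share higher was below it. Between the BP times, 1 member (1.06%) was higher and 14 (14.9%) were lower at 24 h than at 3 h, beside 6.96% and 9.43%. These comparisons share arrays, so the last count and the counts against control cells are not separate observations. Brighter genes passed the 1.25-fold limit more often. Those with their highest value above the median of all clusters were 12000 genes and 86 members. At 24 h, 1643 of these genes were higher and 1351 lower than in control cells, beside 3 and 7 of these members. Between the BP times, 1126 were higher and 1716 lower at 24 h, beside 1 and 13.

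The direction of small differences was also counted. At 3 h, 51 members had a higher value than in control cells, 23 had exactly the same deposited value and 20 had a lower one (54.3%, 24.5% and 21.3%), while over all genes the shares were 31.2% higher, 41.1% equal and 27.6% lower. The median difference of members was 0.02 on the log2 scale, and that of all genes was 0.00. At 24 h, 24 members were higher, 35 were equal and 35 were lower (25.5%, 37.2% and 37.2%), while all genes had 25.4%, 46.7% and 27.9%, and both medians were 0.00. The same deposited value stood on all 3 arrays for 20 members (21.3%) and for 34.2% of all genes. The cause of such equal values was not tested, so an equal value need not mean unchanged RNA. Equal values were rarer among bright genes, and 84 of the 94 members had a mean over the 3 arrays above the median of all clusters. Among those 84, 47 were higher, 19 were equal and 18 were lower at 3 h (56.0%, 22.6% and 21.4%), beside 46.4%, 27.3% and 26.3% of the 11726 genes above the same level. At 24 h, 23 of the 84 were higher, 28 were equal and 33 were lower (27.4%, 33.3% and 39.3%), beside 35.3%, 30.3% and 34.3% of these genes. The spread of the differences over members was narrower than that over all genes, with an SD over genes of 0.15 against 0.20 at 3 h and of 0.19 against 0.40 at 24 h. The split at 3 h depended on the scaling of the arrays. After centring each array on its 75th percentile it was 31 members higher and 63 lower, after quantile normalization 33 and 61, and after centring on the median 79 and 15. The shares of all genes higher and lower were 22.4% and 77.6%, 32.1% and 66.2%, and 73.4% and 26.6%, in that order.

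**Figure D1:**
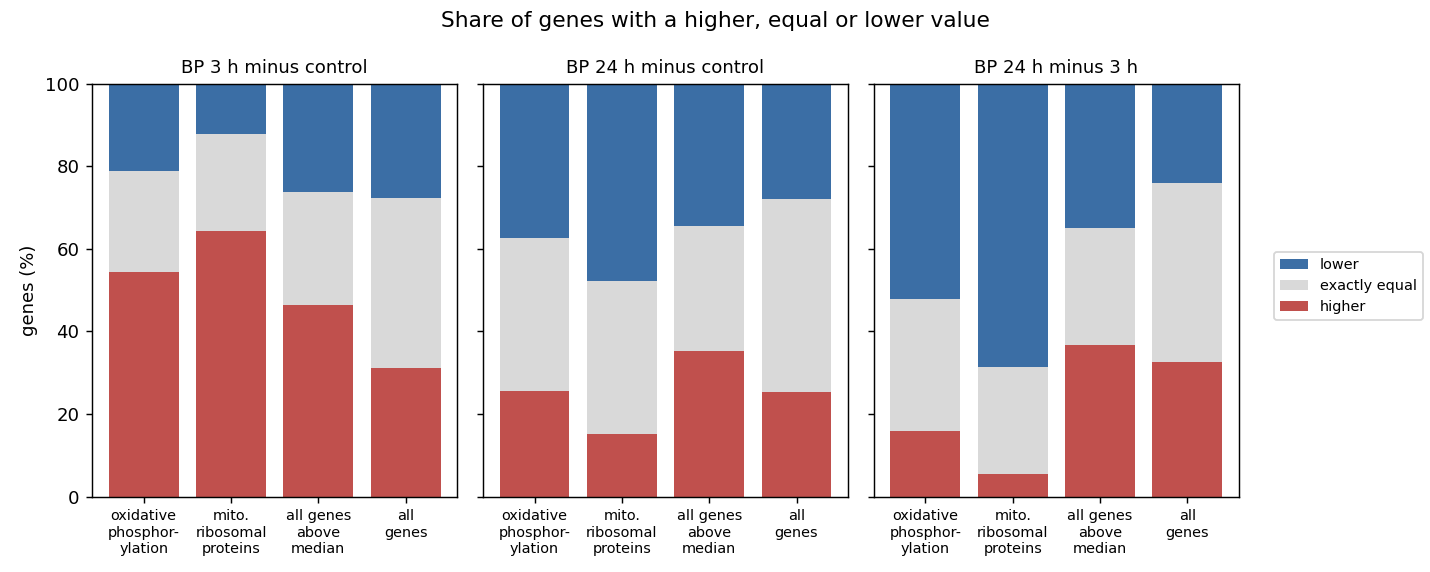
Share of genes (%) with a higher, exactly equal or lower deposited value, for the 94 members, 73 mitochondrial ribosomal protein genes, 11726 genes whose mean lies above the median level and all 19208 genes, in each of 3 comparisons with 1 array per condition. At 3 h, 54.3% of members were higher than in control cells against 31.2% of all genes, and at 24 h 37.2% of members were lower against 27.9%. Of the 11726 genes above the median level, 46.4% were higher at 3 h and 34.3% were lower at 24 h.

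The promoters of members share letters that the rule did not use. Windows of 250 bases before to 50 bases after the annotated start were taken from RefSeq (GRCh38.p14), and 73 of 94 members had 88 of them. They were searched on both strands for 3 exact motifs, GCGCATGC (the core bound by NRF1), CCGGAAG (the core bound by ETS factors such as GABP) and AAGATGGC (bound by YY1). The NRF1 core stood in 18 windows (20.5%), against 3.05% of 35116 promoters of all genes. The ETS core stood in 26 (29.5%), against 10.3%, and the YY1 motif in 13 (14.8%), against 2.89%. At least 1 of the 3 stood in 44 windows of 88, against 14.9% of all promoters. Windows of 1 gene can overlap, a palindromic NRF1 site matches on both strands, and all promoters include those of genes that do not code for protein. The place of the matches differed between motifs, as 26 of 26 NRF1 matches began before the start, while 10 of 13 YY1 matches began 10 to 38 bases after it. A match is a description of the letters and not a bound site.

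**Figure D2:**
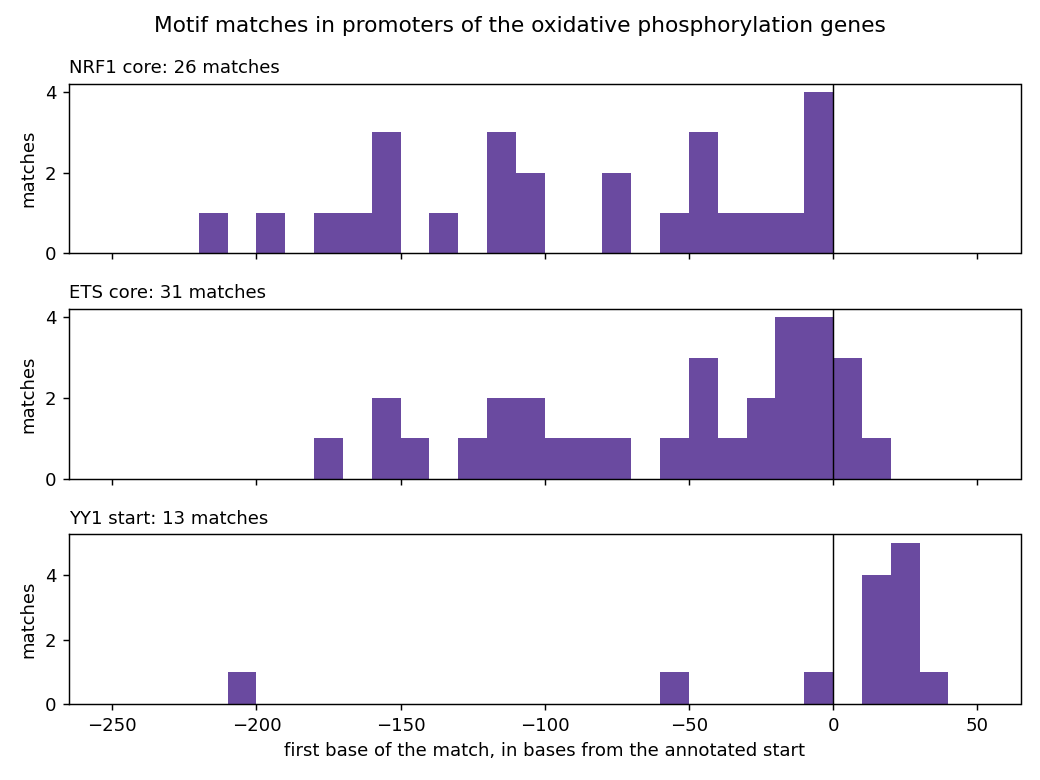
Number of motif matches in 88 promoter windows of 73 members by the first base of the match, in bases from the annotated start, in bins 10 bases wide. The 26 NRF1 matches lie before the start, the 31 ETS matches spread between -180 and 10, and 10 of the 13 YY1 matches lie between 10 and 38.

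The windows of 6 members are printed below, 5′ to 3′ on the strand of the gene, with motif matches in capitals. They were chosen after the values were seen, as 3 genes of complex III with an ETS match, 1 gene that held all 3 motifs, and the 2 genes past 1.5-fold at 24 h. All 8 genes of complex III were higher at 3 h, and these 3 are the ones in which an ETS match was found. UQCR (now UQCR11) lies at chr19:1605413-1605712 on the minus strand with 2 ETS matches, UQCRH at chr1:46303448-46303747 on the plus strand with 1, and UQCRQ at chr5:132866392-132866691 on the plus strand with 1. SDHB lies at chr1:17053983-17054282 on the minus strand with 1 match of each motif. COX18 lies at chr4:73069667-73069966 on the minus strand, the first of 2 windows listed for it, and its NRF1 core matches on both strands. ATP5G1 (now ATP5MC1) lies at chr17:48892537-48892836 on the plus strand with none of these letters.
UQCR: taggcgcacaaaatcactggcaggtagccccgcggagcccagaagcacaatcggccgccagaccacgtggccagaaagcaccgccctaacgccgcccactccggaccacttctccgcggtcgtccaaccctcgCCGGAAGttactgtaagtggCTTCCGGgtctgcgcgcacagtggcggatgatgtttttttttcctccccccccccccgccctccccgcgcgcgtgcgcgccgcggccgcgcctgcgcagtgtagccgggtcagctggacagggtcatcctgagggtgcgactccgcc
UQCRH: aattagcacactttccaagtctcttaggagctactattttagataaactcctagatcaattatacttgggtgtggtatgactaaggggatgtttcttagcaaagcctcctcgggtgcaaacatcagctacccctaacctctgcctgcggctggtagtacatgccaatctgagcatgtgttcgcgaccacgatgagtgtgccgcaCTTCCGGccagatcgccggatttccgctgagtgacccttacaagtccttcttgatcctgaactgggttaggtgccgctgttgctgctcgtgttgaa
UQCRQ: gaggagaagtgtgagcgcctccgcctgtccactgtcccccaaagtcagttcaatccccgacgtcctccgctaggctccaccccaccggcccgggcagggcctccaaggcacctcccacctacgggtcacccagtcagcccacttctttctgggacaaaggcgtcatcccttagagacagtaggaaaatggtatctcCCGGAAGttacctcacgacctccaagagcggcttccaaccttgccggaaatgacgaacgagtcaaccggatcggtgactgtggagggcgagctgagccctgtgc
SDHB: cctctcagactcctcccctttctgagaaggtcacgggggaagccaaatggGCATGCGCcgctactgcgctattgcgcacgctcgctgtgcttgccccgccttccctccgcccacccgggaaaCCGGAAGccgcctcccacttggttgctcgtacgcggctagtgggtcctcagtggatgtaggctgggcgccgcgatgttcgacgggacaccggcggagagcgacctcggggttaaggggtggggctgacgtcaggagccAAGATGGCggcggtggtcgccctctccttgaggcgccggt
COX18: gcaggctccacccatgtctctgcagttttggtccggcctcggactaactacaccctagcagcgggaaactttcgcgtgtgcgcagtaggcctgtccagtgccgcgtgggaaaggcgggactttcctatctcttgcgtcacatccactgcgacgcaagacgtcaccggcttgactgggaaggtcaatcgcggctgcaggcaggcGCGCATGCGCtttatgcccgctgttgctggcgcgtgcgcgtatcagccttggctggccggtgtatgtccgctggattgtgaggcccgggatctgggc
ATP5G1: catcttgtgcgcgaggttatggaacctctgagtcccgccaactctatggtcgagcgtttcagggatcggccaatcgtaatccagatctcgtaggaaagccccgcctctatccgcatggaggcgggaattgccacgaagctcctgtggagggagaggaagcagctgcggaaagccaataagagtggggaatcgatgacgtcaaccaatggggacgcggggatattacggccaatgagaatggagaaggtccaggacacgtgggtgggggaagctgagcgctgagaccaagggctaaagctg

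Complex I feeds electrons from NADH into the chain through a peripheral arm that carries flavin and iron-sulfur centres, while its membrane arm pumps protons. At 3 h, 20 of its 35 genes were higher, 5 were equal and 10 were lower than in control cells, with a median difference of 0.03. At 24 h, 7 were higher, 12 were equal and 16 were lower, with a median of 0.00 and a range of -0.46 to 0.20. The lowest difference was that of NDUFB10, an accessory subunit of the membrane arm, whose log2 values were 8.66 in control cells, 8.66 after 3 h and 8.20 after 24 h (1.37-fold lower at 24 h). NDUFB3, another accessory subunit of that arm, had 5.19 in control cells, 5.77 after 3 h and 4.81 after 24 h. This is 1.49-fold higher at 3 h and 1.31-fold lower at 24 h than in control cells, the widest swing of any member, at a level below the median of the array in control cells.

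Among the core subunits of the peripheral arm, NDUFV2, an iron-sulfur subunit, had 9.34 in control cells, 9.36 after 3 h and 9.02 after 24 h, a difference of -0.32 at 24 h that lies just past the 1.25-fold limit. The other core subunits named here differed less. NDUFV1, which binds NADH and flavin, had 9.69 in control cells, 9.75 after 3 h and 9.69 after 24 h. NDUFS1 differed from control cells by 0.05 at 3 h and -0.02 at 24 h, and NDUFS3 had 9.25, 9.44 and 9.20. NDUFS7, the last iron-sulfur subunit before ubiquinone, had 7.04 on all 3 arrays, and NDUFS8 had 8.03, 7.97 and 8.03. NDUFV2, NDUFS1 and NDUFS3 were thus lower at 24 h than in control cells. NDUFV1, NDUFS7 and NDUFS8 had exactly the deposited value of control cells, and no core subunit named here had a higher one.

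Among the accessory subunits, NDUFB9 had the highest difference at 24 h, with 9.62 in control cells, 9.68 after 3 h and 9.81 after 24 h. NDUFA12 (8.98, 9.08 and 9.08) and NDUFA13 (7.82, 7.92 and 7.92) came next, each 0.10 above control cells at both times. NDUFA13 is also known as GRIM-19, a gene studied in cell death. NDUFB11 had the lowest difference of complex I at 3 h, with 9.07 in control cells, 8.93 after 3 h and 8.96 after 24 h. The highest control value of the complex was that of NDUFS5, with 10.70 in control cells, 10.89 after 3 h and 10.55 after 24 h. NDUFB4 had 2 clusters with the same 3 values (9.63, 9.73 and 9.45), so its probes cannot be taken as separate measurements.

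Complex II is succinate dehydrogenase, the enzyme that the chain shares with the tricarboxylic acid cycle. SDHA, the flavoprotein, had 9.30 in control cells, 9.37 after 3 h and 9.16 after 24 h. SDHB, the iron-sulfur subunit whose promoter holds all 3 motifs, had 8.39 on all 3 arrays. SDHC and SDHD anchor the enzyme in the membrane, and for both the result depended on the cluster. The SDHC cluster with the higher mean had 9.15 on all 3 arrays, and the other had 7.01 in control cells, 7.35 after 3 h and 6.95 after 24 h. For SDHD the cluster with the higher mean had 8.20, 8.43 and 8.38, and the other had 7.99 on all 3 arrays. Values of SDHC and SDHD are therefore uncertain.

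Complex III, the cytochrome bc1 complex, was the only one whose genes all had a higher deposited value at 3 h. All 8 were higher than in control cells, by 0.01 to 0.58 with a median of 0.20, and all 8 were lower at 24 h than at 3 h, with a median of -0.21. At 24 h, 1 gene was higher, 4 were equal and 3 were lower than in control cells, with a median of 0.00. Over all genes, 32.7% were higher and 24.1% were lower at 24 h than at 3 h. Outside the members, the 6 genes for electron input and mobile carriers had the same pattern. All 6 were higher at 3 h (median 0.15) and lower at 24 h than at 3 h (median -0.27). The 12 regulators of biogenesis did not, with 5 higher and 4 lower at 24 h than at 3 h. UQCRB, a small subunit beside the ubiquinone site, had 4.75 in control cells, 5.33 after 3 h and 4.75 after 24 h, at a level below the median of all clusters. UQCRQ had 7.47, 7.72 and 7.47, and UQCR had 7.01, 7.18 and 7.01, so both were back at the control value at 24 h. Both hold ETS matches in the windows printed above, as does UQCRH, and 3 of 6 windows of complex III held 1, against 29.5% of those of all members. Genes of the complex with and without a match were higher at 3 h, and a relation between matches and values was not tested.

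Among the members of complex III, the subunits that carry redox centres, and the larger proteins around them, also had their highest value at 3 h on the clusters used. CYC1, cytochrome c1, had 9.45 in control cells, 9.68 after 3 h and 9.19 after 24 h, and it was 1.40-fold lower at 24 h than at 3 h. UQCRFS1, the Rieske iron-sulfur protein, had 10.30, 10.36 and 10.19 on its brighter cluster, while its other cluster had 5.80 on all 3 arrays. On the clusters used, CYC1, UQCRFS1 and UQCRH lay below control cells at 24 h. UQCRB, UQCRQ, UQCR and UQCRC1 had exactly the control value, and UQCRC2 lay above it. The core proteins were UQCRC1 (8.63, 8.64 and 8.63) and UQCRC2 (10.33, 10.49 and 10.36). UQCRH, the hinge protein beside cytochrome c1, had 9.60, 9.83 and 9.45 on its brighter cluster, and 6.91, 7.01 and 6.91 on the other. After centring on the 75th percentile or quantile normalization, 6 of the 8 genes were higher at 3 h and 2 were lower, with medians of 0.11 and 0.11. Without complex III, the median of the other 86 members at 3 h was 0.00, with 43 higher, 23 equal and 20 lower.

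**Figure D3:**
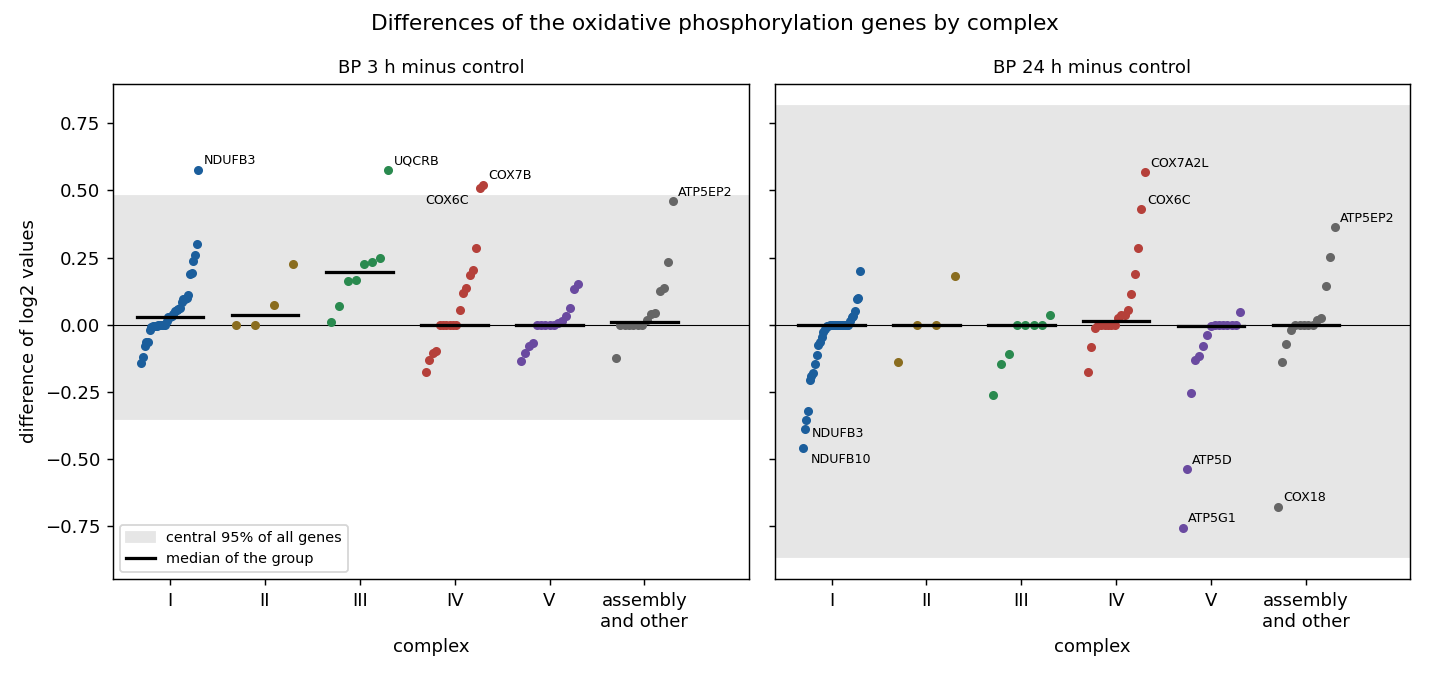
Difference of deposited log2 values from control cells for each member (points), by complex, at 3 h (left panel) and 24 h (right panel), with 1 array per condition. Black lines are medians and the grey band holds the central 95% of all genes. The 8 genes of complex III lie above 0 at 3 h, and ATP5G1 and COX18 are the lowest members at 24 h.

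Complex IV, cytochrome c oxidase, had 9 genes higher, 6 equal and 3 lower at 24 h than in control cells, with a median of 0.01. COX7A2L, which joins complexes III and IV into supercomplexes, had 8.13 in control cells, 8.33 after 3 h and 8.69 after 24 h. It was 1.48-fold higher at 24 h than in control cells, the highest difference of any member at that time. COX6C, a small nuclear subunit, had 8.50, 9.01 and 8.93, and COX7A2 had 7.69, 7.97 and 7.97, so these stood above control cells at both times. COX7B had 7.53, 8.05 and 7.56, which was 1.44-fold higher at 3 h and near the control value at 24 h. COX6B1, which faces cytochrome c, had the lowest differences of the complex, with 9.30, 9.13 and 9.13. COX5A had 9.13 in control cells, 9.13 after 3 h and 9.04 after 24 h. After centring on the median or the 75th percentile, 9 of the 18 genes were higher and 9 were lower at 24 h. Over all genes, 25.3% and 23.6% were higher and 74.7% and 76.4% were lower under these scalings, in that order. After quantile normalization, 8 of the 18 genes were higher and 10 were lower at 24 h, beside 27.8% and 70.2% of all genes.

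Several subunits of complex IV have a general form and a form of particular tissues, and the tissue forms differed from control cells by at most 0.13 at either time. COX4I1, the general form, had 7.62 in control cells, 7.74 after 3 h and 7.66 after 24 h, and COX4I2, known from lung, had 5.42, 5.32 and 5.41. COX6A1 had 10.12, 10.12 and 10.14, and COX6A2, the form of heart and muscle, had 6.08 on all 3 arrays. COX7A1, also of heart and muscle, had 4.85 on all 3 arrays. The testis forms COX7B2 and COX8C had 3.62 on all 3 arrays and 3.84, 3.71 and 3.84. COX8A, the general form of the last subunit, had 8.39 on all 3 arrays. NDUFA4, first assigned to complex I and later to complex IV, had 8.35, 8.40 and 8.40, and its paralogue NDUFA4L2, known from hypoxia, had 6.25, 6.15 and 6.25. Values of different clusters depend on their probes, so levels are not compared between genes.

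Complex V had the most one-sided split at 24 h, with 1 gene higher, 6 equal and 8 lower than in control cells, and a range of -0.75 to 0.05. ATP5G1 had 8.25 in control cells, 8.14 after 3 h and 7.49 after 24 h, which was 1.69-fold lower at 24 h, the lowest difference of any member. Its product is the c subunit of the rotor ring, and ATP5G2 and ATP5G3 encode the same mature protein. ATP5G2 had 8.43, 8.35 and 8.43, and ATP5G3 had 5.38 on all 3 arrays. A lower value at 24 h was therefore seen in 1 of the 3 genes for this protein.

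The F1 head of ATP synthase carries the catalytic sites. ATP5D, its delta subunit, had 9.98 in control cells, 9.84 after 3 h and 9.44 after 24 h (1.45-fold lower at 24 h). ATP5A1, the alpha subunit, had 10.46, 10.59 and 10.21, and ATP5C1, the gamma subunit, had 10.14, 10.29 and 10.03. ATP5B, the beta subunit, had the highest control value of the complex, with 12.15, 12.15 and 12.01. These 4 head subunits were all lower at 24 h than in control cells, while ATP5E, the epsilon subunit, had 7.59, 7.65 and 7.63 and was the 1 gene of the complex that was higher. In the stalk and membrane part, ATP5O and ATP5F1 had the same value on all 3 arrays (9.27 and 7.41). ATP5L2, annotated as a pseudogene, had the lowest value, with 4.70 on all 3 arrays. Under each of the 3 other scalings, which give exactly equal values a sign, 14 of the 15 genes were lower and 1 was higher at 24 h, beside 70.2% to 76.4% of all genes lower.

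**Figure D4:**
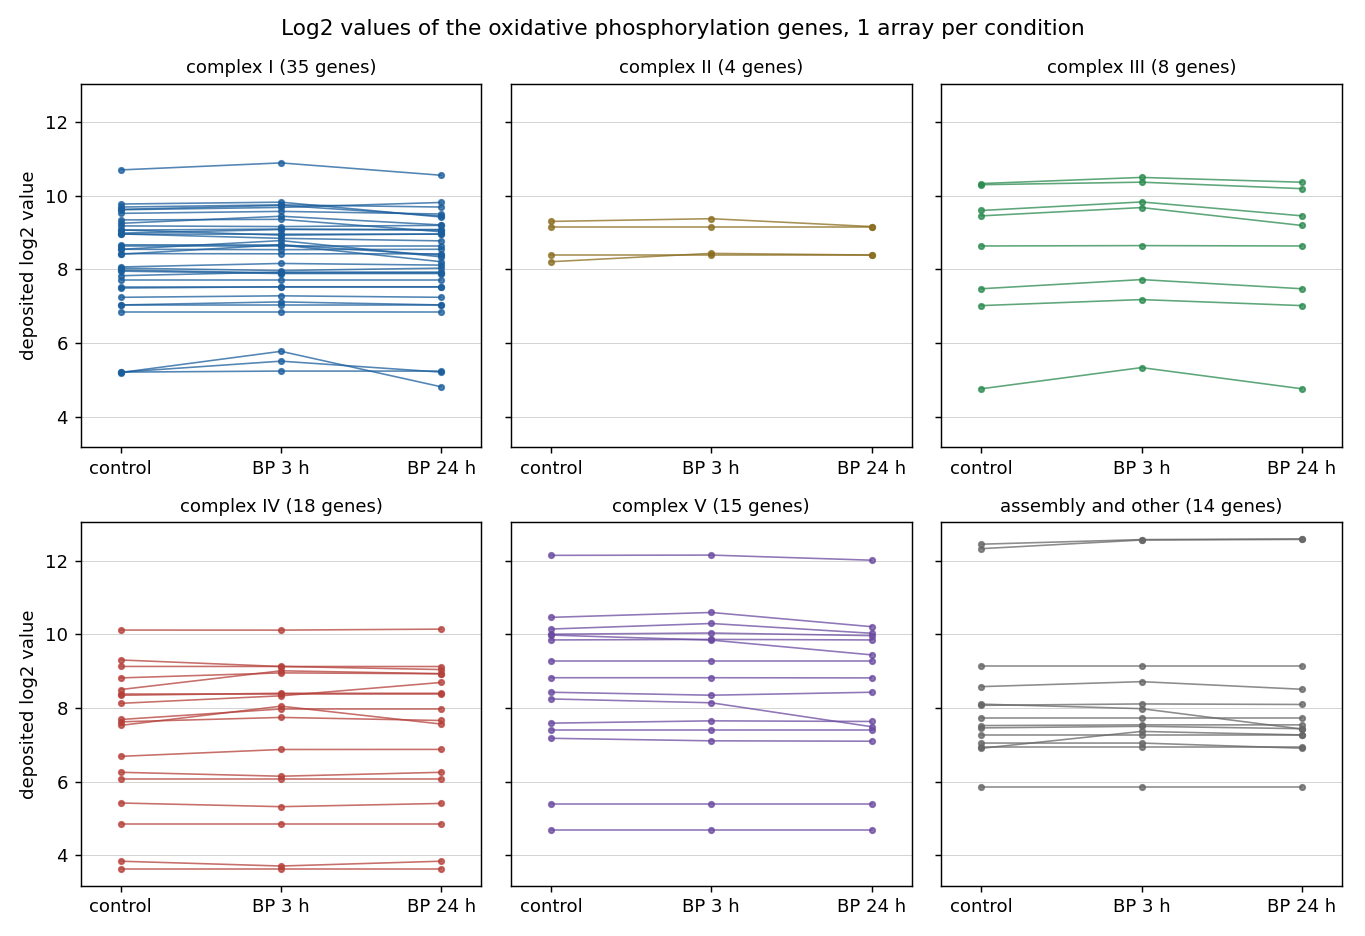
Deposited log2 value of each of the 94 members on the arrays of control cells, 3 h BP and 24 h BP (1 array per condition), with 1 line per gene, by complex. Most lines are nearly flat, all 8 lines of complex III have their highest point at 3 h, and the uppermost pair among assembly and other genes is COX1 and COX2, between 12.33 and 12.59.

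Among assembly factors, COX18, which inserts part of COX2 into the inner membrane, had 8.10 in control cells, 7.98 after 3 h and 7.43 after 24 h. It was 1.60-fold lower at 24 h than in control cells, and its promoter window holds the NRF1 core printed above. Other factors for complex IV differed less. COX11, a copper carrier, had 7.05, 7.05 and 6.91 on 1 cluster and 6.75 on all 3 arrays on the other. COX16 had 8.58, 8.72 and 8.51, and COX10, which makes the heme of complex IV, had 7.27 on all 3 arrays. NDUFAF1 and NDUFAF2, assembly factors of complex I, had 8.07, 8.11 and 8.10, and 6.93 on all 3 arrays. ATP5S, the dimmest of these 14 genes, had 5.85 on all 3 arrays. ATP5EP2, annotated as a pseudogene of the epsilon subunit, had 6.91, 7.36 and 7.27, and whether its probes also read ATP5E was not tested. COX4NB (now EMC8) is named for its place beside COX4I1 and is no subunit, and it had 7.52, 7.54 and 7.54.

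COX1 and COX2 are core subunits of complex IV and are encoded in the mitochondrial genome, as are no other members. COX1 had 12.45 in control cells, 12.57 after 3 h and 12.59 after 24 h, and COX2 had 12.33, 12.56 and 12.58, so both were higher at both times. Another 5 mitochondrial genes were measured, which the rule did not take in and which were listed after the annotation was seen. ND2, a subunit of the membrane arm of complex I, had 9.91, 9.74 and 10.35, and ND5 had 11.59, 11.86 and 11.96. ND3 had 11.21, 11.28 and 11.37, and CYTB, the cytochrome b of complex III, had 12.53, 12.68 and 12.69. ND6 had 9.93 in control cells, 9.96 after 3 h and 9.62 after 24 h. At 24 h, 6 of the 7 mitochondrial genes were thus higher than in control cells, by 0.14 to 0.44, and ND6, the only protein gene on the light strand of the mitochondrial genome, was lower by 0.31. The same 6 and 1 were counted at 24 h under every scaling tried. Over the 7 mitochondrial genes the median difference at 24 h was 0.16, and over the 92 nuclear members it was 0.00. Mitochondrial transcripts are cut from long precursors, so these 7 values are not separate observations.

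Other genes of respiration were taken from a list of 59, of which 52 were measured. Relative to control cells at 24 h, 0 were 2-fold higher and 1 (1.92%) was 2-fold lower, beside 1.53% and 2.11% of all genes. At 1.25-fold, 1 (1.92%) was higher and 11 (21.2%) were lower, beside 9.18% and 7.58%. Their median difference was 0.04 at 3 h and -0.05 at 24 h, beside 0.00 and 0.00 over all genes. The gene past 2-fold was PDSS1, a subunit of the enzyme that builds the side chain of ubiquinone, with 8.00 in control cells, 7.98 after 3 h and 6.52 after 24 h. COQ7 (7.49, 7.49 and 6.76) and COQ3 (6.04, 6.18 and 5.53), which modify the ring of ubiquinone, were also lower at 24 h, whereas COQ5 (7.95, 8.12 and 8.14) and COQ6 (8.04, 8.32 and 8.24) were higher. DHODH, the enzyme of pyrimidine synthesis that delivers electrons to ubiquinone, had 7.34, 7.48 and 6.43. It was 2-fold lower at 24 h than at 3 h, as was PDSS1.

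Carriers and regulators gave a mixed picture. CYCS, cytochrome c, had 8.58 in control cells, 8.60 after 3 h and 8.48 after 24 h. SLC25A4 and SLC25A5, which exchange ADP for ATP, had 8.73, 8.72 and 8.83, and 10.39, 10.39 and 10.17. Of the regulators, TFAM, which packs mitochondrial DNA and starts its transcription, stood out with 8.50, 8.61 and 7.67, a difference of -0.83 at 24 h. NRF1, whose core was searched above, had 6.33, 6.33 and 6.54, and ESRRA, a nuclear receptor of mitochondrial genes, had 7.93, 7.68 and 7.70. PPARGC1A, a coactivator of mitochondrial biogenesis, had 3.94 on all 3 arrays, which is below the median of the arrays. TFAM was lower at 24 h on the same array on which 6 of 7 mitochondrial genes were higher, and a relation between them was not tested.

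Neighbouring mitochondrial pathways were set beside the members. All 14 genes of the tricarboxylic acid cycle lay within 0.10 of control cells at 3 h, and at 24 h 8 were lower, 3 were equal and 3 were higher. IDH2, a mitochondrial isocitrate dehydrogenase, had 8.96 in control cells, 9.05 after 3 h and 8.21 after 24 h, and FH, fumarase, had 8.24, 8.29 and 7.61. Mitochondrial ribosomal proteins, which translate the mitochondrial subunits, comprised 73 genes. At 24 h, 7 of the 94 members (7.45%) were 1.25-fold lower, beside 13 of the 73 ribosomal genes (17.8%) and 7.58% of all genes. In the other direction, 3 members (3.19%) were 1.25-fold higher, beside 2 ribosomal genes (2.74%) and 9.18% of all genes. The median difference at 3 h was 0.02 for the members and 0.06 for the ribosomal genes, and at 24 h it was 0.00 for both. No test of the difference between these groups was made.

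**Figure D5:**
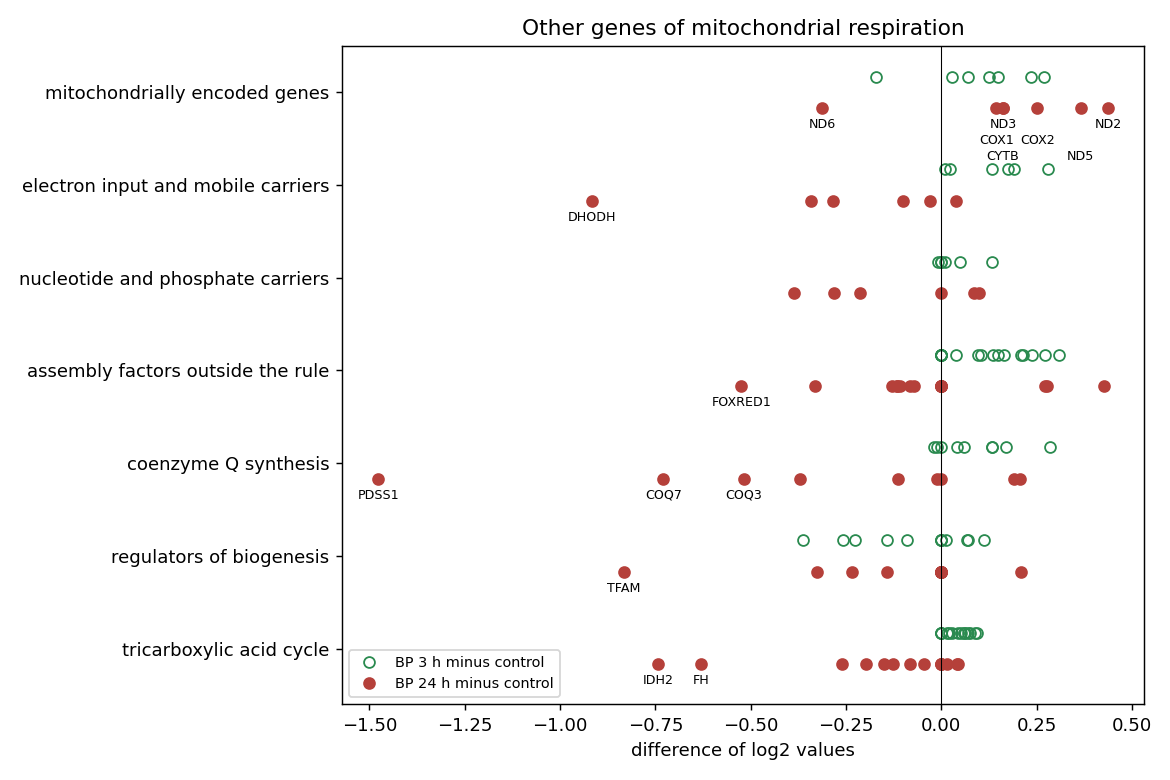
Difference of deposited log2 values from control cells at 3 h (open points) and 24 h (filled points) for other genes of respiration, by list, and for the 7 mitochondrially encoded genes, with 1 array per condition. PDSS1 at -1.48, DHODH at -0.92 and TFAM at -0.83 are the lowest at 24 h, and 6 of the 7 mitochondrially encoded genes lie above 0.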

How the data were processed

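Total RNA of LNCaP cells was labelled with biotin and put on 1 Affymetrix Human Gene ST array per condition. The log2 values deposited by the authors for 33297 transcript clusters were used as they stood. Affymetrix Expression Console and RMA are given in the submitters' processing notes, without versions, whereas MAS5.0 and a GeneSpring scaling of each chip on its median are given in the Methods, and which of them made the values is not settled. Precision is limited by having 1 array per condition. Columns of the authors' own comparisons hold log2 ratios and folds and were not used. Only the gene symbol, title and cytoband were taken from these tables.

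Of all clusters, 20087 had 1 symbol, 1904 had several and 11306 had none. For the 627 genes with several clusters, the one brightest on average over the 3 arrays was kept. Members were matched to RefSeq (GRCh38.p14) for 93 of 94 genes, of which 21 have a newer symbol, and NDUFA4 was not matched. Differences of log2 values were taken between conditions, with 2-fold as the main threshold. Named were, for each complex, the 3 largest increases and decreases at 24 h and the largest of each at 3 h, the highest and lowest control value, the subunits of complex II, CYC1, core subunits, isoform sets, and other pathway genes past 2-fold with 8 carriers and regulators, of which SLC25A6 was not analysed here. COX1 and COX2 fall under assembly and other genes because they do not have the names of nuclear subunits. The members, the lists and this rule were chosen with earlier results of these data known. The values of 1 gene are not reported here, though the counts include it. The calculations were tested on simulated data. As alternatives, arrays were centred on the median or the 75th percentile or were quantile normalized, clusters of a gene were averaged, and other runs kept only members whose highest value (or, added later, mean) was above the median level of 5.47 or only structural subunits, and used thresholds of 1.5-fold, 3-fold and, added later, 1.25-fold. The tools were numpy 2.4.6, pandas 2.3.3 and matplotlib 3.10.9 under Python 3.11.15.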

Additional observations from a re-analysis of the deposited data

Results flagged for a closer look

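NDUFB3, an accessory subunit of complex I, was marked for a closer look because its difference from control cells had opposite signs at the 2 times, each past 1.25-fold, a limit chosen after the values were seen. It was 0.58 at 3 h (log2 values of 5.77 against 5.19 in control cells) and -0.39 at 24 h (4.81 against 5.19). Both differences share the control array, there was 1 array per condition, and the difference between the times was not tested.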

How the results depend on the processing

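The counts of 0 members past 2-fold higher or lower at 3 h and at 24 h were also 0 under the other scalings and with the mean of clusters. Counts above the median level, for structural subunits and at 3-fold had to be 0 too, since they take a part of the members or a stricter limit. At 1.5-fold, 2 were lower at 24 h. At 1.25-fold, 5 were higher at 3 h, and 3 were higher and 7 lower at 24 h.

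Small median shifts turned with the scaling, which moved the median of all genes at 3 h by up to -0.08. The median of members was 0.02 at 3 h, and it was -0.0637 after centring on the 75th percentile and -0.0482 after quantile normalization. Between 24 h and 3 h it was -0.01, and 0.0477 and 0.0280 under these scalings. The median of complex III was 0.20 at 3 h, and 0.11 and 0.11 under them, with 2 genes lower in place of 0. Between 24 h and 3 h it was -0.21, and -0.16 and -0.15. Counts of members by sign moved as well, since a shift gives exactly equal values a sign and turns that of values near 0. At 3 h, 51 were higher and 20 lower as deposited, 31 and 63 on the 75th percentile, 33 and 61 after quantile normalization, and 79 higher on the median. The shares of all genes higher were 31.2%, 22.4%, 32.1% and 73.4%, in that order. At 24 h, 35 were lower as deposited, 70 on the median, 73 on the 75th percentile and 73 after quantile normalization. Between 24 h and 3 h, 15 were higher and 49 lower as deposited, 57 and 56 were higher under the 75th percentile and quantile normalization, and 82 were lower on the median. Of complex III at 24 h, 3 genes were lower than in control cells as deposited, 7 under each of the 3 scalings, and 1 was higher as deposited and 0 after quantile normalization. Between 24 h and 3 h, 0 were higher as deposited and 1 under the 75th percentile and quantile normalization.

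Of 216 values for named genes, 152 stayed within 0.05 of the deposited difference and 0 of those over 0.05 turned sign. Centring moves every gene of a comparison by the same amount, and averaging clusters changes only genes with several clusters. The 152 therefore mostly describes the settings and says little about single genes. No paired analysis was possible because each condition has 1 array and the labels carry no replicate numbers. Dim clusters, including 8 members at or below the median level, limit what small differences show.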
